A study of Mus musculus with 70 samples.

Results

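Of the 27179 genes measured in progenitors sorted from mouse marrow on their way to innate lymphoid cells (ILC), 48 were proteasome genes by the rule used here. Members were the protein-coding genes whose RefSeq symbol starts with Psma to Psmg and a digit. The pattern matched 50 symbols, and 2 of them, the interferon-inducible subunit genes Psmb8 and Psmb9, were set aside. The pattern also took in 2 genes that encode no proteasome subunit, Psmc3ip (a recombination cofactor) and Psme3ip1 (a binding partner of an activator), and it missed subunits with other names. Enough counts for a test were found for 46 members. The testis subunit gene Psma8 (24 counts over the 47 libraries compared) and 1 thymus-specific member were not tested.

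The proteasome degrades proteins that carry ubiquitin chains. Its 20S core is a barrel of alpha rings around beta rings, and the beta subunits encoded by Psmb5, Psmb6 and Psmb7 hold the cutting sites. The 19S regulatory particle caps the core: a ring of ATPases (Psmc genes) unfolds the substrate, and non-ATPase subunits (Psmd genes) bind ubiquitin and remove it. Dedicated chaperones (Psmg genes, Psmd5, Psmd9, Psmd10) help to assemble these particles, and PA28 and PA200 (Psme genes) are other caps. Lymphocytes also make an immunoproteasome, in which Psmb10 replaces the subunit encoded by Psmb7.

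Each library came from 100 cells sorted from bone marrow, read by CEL-seq, which counts tags near the 3′ end of transcripts. The Tcf7 knockout (labelled TCF7; the gene encodes TCF-1, a transcription factor of early ILC and T cells) gave 5 CLP, 4 CILP and 2 ILC2P libraries, and the Id2 knockout (Id2 encodes an inhibitor of E proteins) gave 2 CLP, 2 CILP and 1 ILCP library. Wild-type (WT) mice gave 8 CLP (common lymphoid progenitors), 5 α4β7+ CLP (CLP with that integrin), 7 CILP (common progenitors of ILC), 3 of a population labelled ILCP, and 8 ILC2P (group 2 ILC progenitors). The knockouts are written TCF7-/- and Id2-/-. Strain, age and the number of mice are not given in the sources used here, so the p-values measure the spread between libraries, which may be partly technical. The libraries were made in 2 batches, with all Id2 knockout libraries in batch 1 and both Tcf7 knockout ILC2P libraries in batch 2.

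Depth ran between 19322 and 624668 gene counts (median 134985) over the 47 libraries, of which the 48 genes took between 56 and 3261 (median 807). ILC2P libraries were the shallowest wild-type group, at 19322 to 80873 counts. CLP markers such as Flt3 and Rag1 made up 0.931 to 1.81% of counts in wild-type CLP, and ILC2 markers such as Il1rl1 made up 0.445 to 0.874% in wild-type ILC2P, against 0.00284 to 0.0464% in wild-type CLP. The 3 wild-type ILCP libraries held ILC2 markers at 0.184, 0.746 and 0.576%, so 2 of them lay in the ILC2P range. Tcf7 averaged 31.1 ± 26.2 CPM in Tcf7 knockout CILP (SD, n = 4) and 445 ± 253 CPM in wild-type CILP (SD, n = 7), where CPM are counts per 1000000 of the library total after TMM scaling. In ILC2P, where wild-type levels were low, Tcf7 did not separate the genotypes, at 0 and 53.4 CPM in Tcf7 knockout ILC2P and 0 to 61.8 CPM in wild type, and in CLP it averaged 11.95 ± 11.9 CPM in the knockout and 1.02 ± 2.89 CPM in wild type (SD, n = 5 and 8). Id2 had 27.1 and 116 CPM in Id2 knockout CILP and 79.6 to 2286 CPM in wild-type CILP, so that check overlapped. Markers of other cell types passed 1% of counts in 5 libraries. In Tcf7 knockout ILC2P replicate 1, all 7 plasma and mature B cell markers were detected and made up 20.03% of counts, against at most 0.153% in any wild-type ILC2P library. Erythroid and myeloid markers made up 1.27 and 1.10% in Tcf7 knockout CILP replicate 1, 3.59 and 1.12% in its replicate 4, and 1.64 and 1.55% in the Id2 knockout ILCP library, and erythroid markers made up 1.15% in wild-type ILCP replicate 1.

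Promoters of members called below are shown because these genes moved in the same direction in ILC2P; Psmb1 did too but has no entry in the promoter table. RefSeq (GRCm38.p6) gave a window of 250 bases before to 50 bases after the start for 40 of the 48 members. Psma7 lies at chr2:180042415-180042714 on the minus strand, Psmb4 at chr3:94886909-94887208 on the minus strand, Psmb6 at chr11:70525107-70525406 on the plus strand, and Psmc6 at chr14:45329574-45329873 on the plus strand. Each sequence reads 5′ to 3′ in the direction of the gene, and capitals mark matches, on either strand, to 3 searched motifs: TGACNNNGC (antioxidant response element, bound by the NRF factors that drive proteasome genes in many cells), CCGGAAG (ETS core) and CCAAT.
Psma7: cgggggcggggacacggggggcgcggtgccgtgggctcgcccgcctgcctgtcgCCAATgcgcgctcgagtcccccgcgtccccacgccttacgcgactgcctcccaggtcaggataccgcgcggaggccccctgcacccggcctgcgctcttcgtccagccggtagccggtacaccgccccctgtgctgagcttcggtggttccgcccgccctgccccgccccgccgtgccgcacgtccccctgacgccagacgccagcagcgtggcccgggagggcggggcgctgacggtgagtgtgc
Psmb4: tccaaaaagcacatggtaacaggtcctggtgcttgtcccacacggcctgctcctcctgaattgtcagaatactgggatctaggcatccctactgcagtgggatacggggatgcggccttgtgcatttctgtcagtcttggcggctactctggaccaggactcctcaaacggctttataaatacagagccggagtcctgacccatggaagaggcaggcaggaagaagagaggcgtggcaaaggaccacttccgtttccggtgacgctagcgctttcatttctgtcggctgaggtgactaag
Psmb6: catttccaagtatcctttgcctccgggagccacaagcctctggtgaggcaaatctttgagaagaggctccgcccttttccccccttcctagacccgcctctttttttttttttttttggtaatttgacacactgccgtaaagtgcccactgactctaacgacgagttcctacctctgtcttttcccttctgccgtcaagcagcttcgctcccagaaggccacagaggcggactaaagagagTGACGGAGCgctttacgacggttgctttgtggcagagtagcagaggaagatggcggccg
Psmc6: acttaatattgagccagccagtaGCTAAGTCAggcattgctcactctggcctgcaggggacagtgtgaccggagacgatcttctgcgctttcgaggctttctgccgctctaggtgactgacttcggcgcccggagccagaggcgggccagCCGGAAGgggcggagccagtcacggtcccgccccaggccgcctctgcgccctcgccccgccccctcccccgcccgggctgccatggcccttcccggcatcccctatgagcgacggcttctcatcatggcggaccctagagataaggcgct
Psma7 held a CCAAT match that began 196 bases upstream, Psmb6 an antioxidant response element that began 9 bases upstream, and Psmc6 both an antioxidant response element and an ETS core, 227 and 100 bases upstream, while Psmb4 held none of the 3. Over all members with a window, the antioxidant response element was found in 6 of 40 (15%, against 17.3% of other tested genes), CCAAT in 15 (37.5%, against 43.1%) and the ETS core in 16 (40.0%, against 21.4%). These are matches of letters and do not show that a factor binds.

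Members differed widely in level. Over the 31 wild-type libraries the highest were the beta subunit gene Psmb1 at 433 ± 311 CPM, Psme1, which encodes a PA28 subunit, at 407 ± 347 CPM, and the alpha subunit gene Psma7 at 370 ± 243 CPM (SD, n = 31). Psme1 and Psma7 had counts in 31 of 31 libraries and Psmb1 in 30. The lowest tested member was the assembly chaperone gene Psmg2 at 13.9 ± 26.5 CPM, seen in 10 of 31 libraries, below which were Psma8 at 2.07 ± 7.59 CPM (3 of 31) and the thymus-specific gene. Psma8 counts came mainly from CILP, with 13 counts over the 2 Id2 knockout libraries and 8 over the 7 wild-type libraries. Counts come from transcript ends, so levels of different genes are on a per-transcript scale that also depends on how well each end was captured. Within a wild-type group a member's counts spread by a median of 5.04 to 10.1 times the counting error, so a value from a single library is imprecise.

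The 48 genes together made up 0.620 ± 0.0800% of gene counts in wild-type CLP (SD, n = 8), 0.685 ± 0.138% in α4β7+ CLP (n = 5), 0.557 ± 0.0588% in CILP (n = 7), 0.428 ± 0.0852% in ILCP (n = 3) and 0.446 ± 0.143% in ILC2P (n = 8). The lowest, median and highest ILC2P libraries were at 0.285, 0.434 and 0.699%, and those of CLP at 0.504, 0.639 and 0.714%. All populations overlapped in range with CLP, and 6 of the 8 ILC2P libraries lay below the lowest CLP library. The ratio of the ILC2P mean to the CLP mean was 0.718, with 0.725 in batch 1 and 0.714 in batch 2. In bulk samples of this kind a smaller share cannot be told apart from more RNA of other genes, and fewer cells of a type cannot be told apart from less RNA per cell. Repeat runs of 1 library also differed: the share was 0.560, 0.441 and 0.628% in the 3 runs of a CILP library, and 0.562, 0.472 and 0.333% in those of a CLP library, a spread of the size of the difference between the ILC2P and CLP means. No test was made on this sum, because the members were chosen with earlier results in view.

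**Figure D1:**
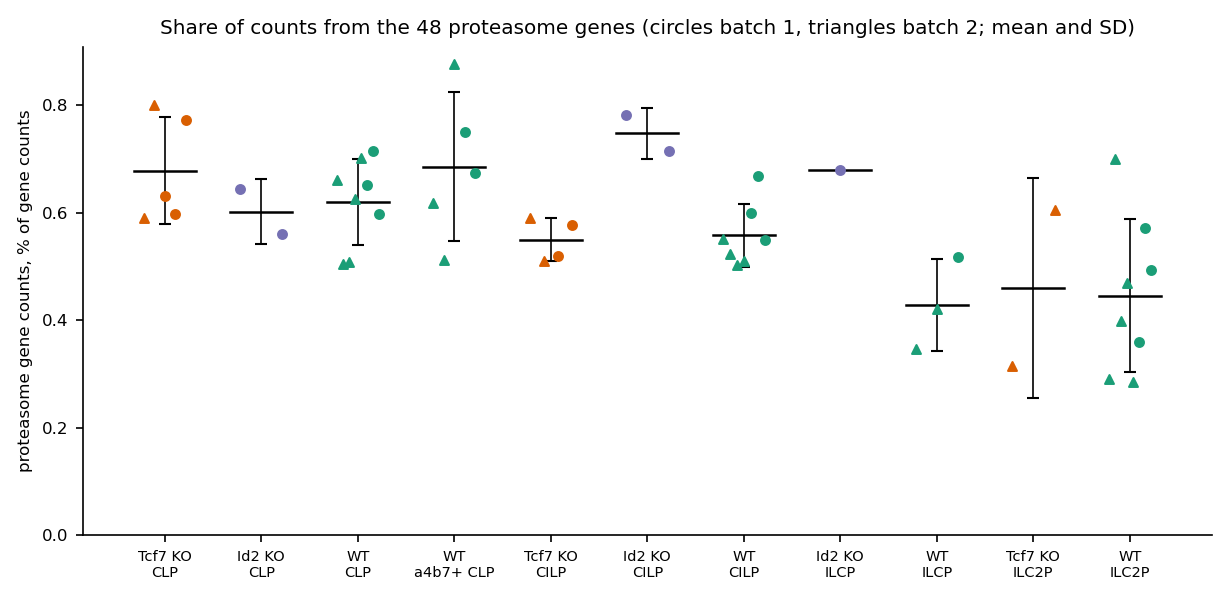
Counts of the 48 proteasome genes as a percentage of all gene counts, 1 point per library, for knockout and wild-type groups of each population; lines are means and bars SD. Wild-type ILC2P spread between 0.285 and 0.699%, and both Id2 knockout CILP libraries (0.781 and 0.714%) lay above the 7 wild-type CILP libraries.

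The lower share in ILC2P was uneven between the 2 particles, as a description with no test. It was uneven within the 19S particle too: the ATPase genes were lower, and non-ATPase genes went both ways (fold changes below). Genes of the 20S core took 0.152 ± 0.0831% of counts in ILC2P and 0.319 ± 0.0437% in CLP (SD, n = 8 each). Genes of the 19S particle took 0.181 ± 0.0530% in ILC2P and 0.2005 ± 0.0575% in CLP. The ratio of 20S to 19S counts was therefore 0.817 ± 0.315 in ILC2P, with libraries between 0.241 and 1.26, and 1.69 ± 0.495 in CLP, with libraries between 1.07 and 2.74. These ranges overlapped slightly. A different gene gave much of the 19S counts in several ILC2P libraries. These were Psmd11 with 15 of 29 (replicate 1), Psmd3 with 99 of 157 (replicate 2) and Psmd1 with 44 of 103 (replicate 4). Psmd7 gave 31 of 68 in replicate 5 and Psmd13 64 of 181 in replicate 8. In replicates 3, 6 and 7 the largest were 11 of 42, 21 of 111 and 37 of 166. The largest such part in a CLP library was 71 of 267 (Psmd14, replicate 5). The part of these genes in the ratio was not tested. Within batch 1 the ratio averaged 1.32 in CLP, 0.991 in CILP and 0.925 in ILC2P. Within batch 2 it averaged 1.91 in CLP, 1.62 in CILP and 0.753 in ILC2P. ILC2P was lowest of these 3 in both, but was close to CILP in batch 1. Its place below CILP in batch 1 depended on the beta gene Psmb3. In wild-type libraries Psmb3 reached 1587 CPM in batch 1 and at most 111 CPM in batch 2. It gave 108, 227 and 11 of the 180, 474 and 81 20S counts in batch 1 CILP. In batch 1 ILC2P it gave 14, 69 and 15 of 118, 174 and 120. Without the 2 shallowest ILC2P libraries (replicates 1 and 3, under 20% of their batch median in depth) the ILC2P ratio was 0.938 ± 0.224 (SD, n = 6). By mean, ILCP stood at the other end, at 2.05 ± 0.210 (SD, n = 3), with the lowest 19S share of the wild-type groups (0.154, 0.0925 and 0.0861%). Its highest library, at 2.27, lay below the highest of CLP (2.74) and of α4β7+ CLP (2.85), which averaged 1.79 ± 0.725 (SD, n = 5). In batch 2 the means of ILCP and α4β7+ CLP were close, at 2.16 and 2.12.

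**Figure D2:**
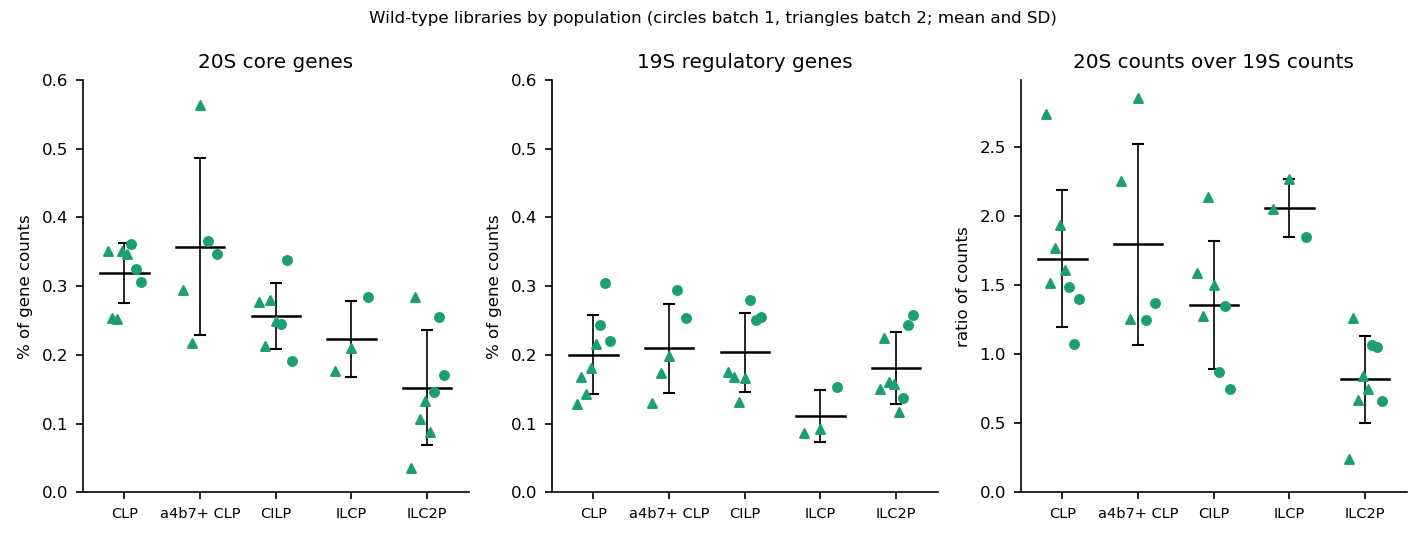
Share of gene counts from 20S core genes (left) and 19S genes (middle), and the ratio of their counts (right), in each wild-type library by population; lines are means and bars SD. The 20S share averaged 0.152% in ILC2P and 0.319% in CLP, while the 19S share averaged 0.181% in ILC2P and 0.2005% in CLP.

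In ILC2P against CLP, 5 members fell and 0 rose at an adjusted p under 0.05 (edgeR quasi-likelihood test, Benjamini-Hochberg over 10972 genes). That is 5 of 46, where 11.5% of all tested genes were called in either direction and 8% were called lower, so the share of members called was near the background. Of the 46 members, 36 had a fold change below 0, with a median log2 change of -0.92, against 6817 of 10972 genes and a median of -0.43. All 7 tested alpha genes and all 7 standard beta genes were below 0, with medians of -1.16 and -1.29. The 6 ATPase genes were also all below 0 (median -1.68), whereas only 6 of the 11 non-ATPase genes were (median -0.26).

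Psma7, an alpha ring gene, had its lowest, median and highest values at 34.5, 137 and 345 CPM in ILC2P, against 220, 525 and 764 CPM in CLP. Only the highest ILC2P library reached the CLP range. The log2 fold change was -1.81 ± 0.48 (SE, adjusted p = 0.00748), and the call held without any 1 library, but neither batch alone passed (-1.57 and -1.94, adjusted p = 0.0647 and 0.0994).

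Psmb4, a structural beta subunit gene, had 0, 65.7 and 198 CPM in ILC2P at its lowest, median and highest, against 88.1, 312 and 659 CPM in CLP. In 3 ILC2P libraries it lay above the lowest CLP library. It fell by 1.83 ± 0.54 on the log2 scale (SE, adjusted p = 0.0168), also without any 1 library. With both shallow ILC2P libraries left out the adjusted p was 0.0532, and in batch 1 alone the log2 change was -1.20 (adjusted p = 0.369).

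Psmb6 encodes the subunit with the caspase-like cutting site. It had 0, 60.6 and 143.0 CPM in ILC2P at its lowest, median and highest, against 143.2, 262 and 433 CPM in CLP. It was the called member whose groups did not overlap on this TMM-scaled measure, though by a margin smaller than the worth of 1 count. On raw totals the groups overlapped: ILC2P replicate 6 held 12 of 80873 counts, a larger share than the 25 of 185147 in CLP replicate 2. The log2 change of Psmb6 was -1.95 ± 0.66 (SE, adjusted p = 0.0409). Leaving out any of CLP replicates 1, 5, 6 and 7 or ILC2P replicates 2, 3, 4, 5 and 7 ended the call (adjusted p 0.0514 to 0.0985). Neither batch alone passed (-1.53 and -2.53, adjusted p = 0.323 and 0.107). With both shallow ILC2P libraries left out the adjusted p was 0.0923.

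Psmb1, a structural beta subunit gene, had 0, 173 and 376 CPM in ILC2P at its lowest, median and highest, against 136, 492 and 1204 CPM in CLP. The groups overlapped. Its log2 change was -1.29 ± 0.45 (SE, adjusted p = 0.0451). The call ended without CLP replicate 1, 3, 4, 5 or 7 or ILC2P replicate 1, 3, 5 or 6 (adjusted p 0.0505 to 0.103). In batch 1 alone the log2 change was -0.61 and in batch 2 alone -1.70 (adjusted p = 0.667 and 0.0972). With both shallow ILC2P libraries left out it was -0.96 (adjusted p = 0.16).

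Psmc6, an ATPase ring gene, had 0 counts in all 8 ILC2P libraries. In CLP it had 0, 2.45 and 196 CPM at its lowest, median and highest, and 4 of 8 libraries had counts. All 4 were in batch 2, and the batch 1 CLP libraries had 0 counts, as in ILC2P. Against 3 counts over the ILC2P group, it was at least 4.73-fold lower in ILC2P (adjusted p = 0.0474). CLP replicate 4 held 24 of the 30 CLP counts (196 CPM), and without it the bound was 1.06-fold and the adjusted p 0.238. The call also ended without CLP replicate 5 or any 1 ILC2P library (adjusted p 0.0529 to 0.0773).

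No other cutting-site gene passed the test in this comparison. Psmb5, with the chymotrypsin-like site, averaged 12.3 ± 21.9 CPM in ILC2P and 38.8 ± 25.0 CPM in CLP (log2 change -1.60 ± 1.00, SE, adjusted p = 0.308), and Psmb7, with the trypsin-like site, averaged 25.0 ± 30.5 CPM in ILC2P and 37.2 ± 18.4 CPM in CLP (adjusted p = 0.808). The immunoproteasome gene Psmb10 averaged 92.0 ± 104 CPM in ILC2P and 132 ± 68.8 CPM in CLP (adjusted p = 0.717). The PA28 genes Psme1 and Psme2 had log2 changes of -0.10 ± 0.54 and -0.39 ± 1.23 (SE, adjusted p = 0.982 and 0.926). Of the ubiquitin receptor genes, Psmd4 had a log2 change of 0.68 ± 0.71 and Psmd2 one of -1.45 ± 0.83, and Psmd14, which encodes the deubiquitinase of the lid, one of -1.03 ± 0.66 (SE, adjusted p = 0.595, 0.251 and 0.324).

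**Figure D3:**
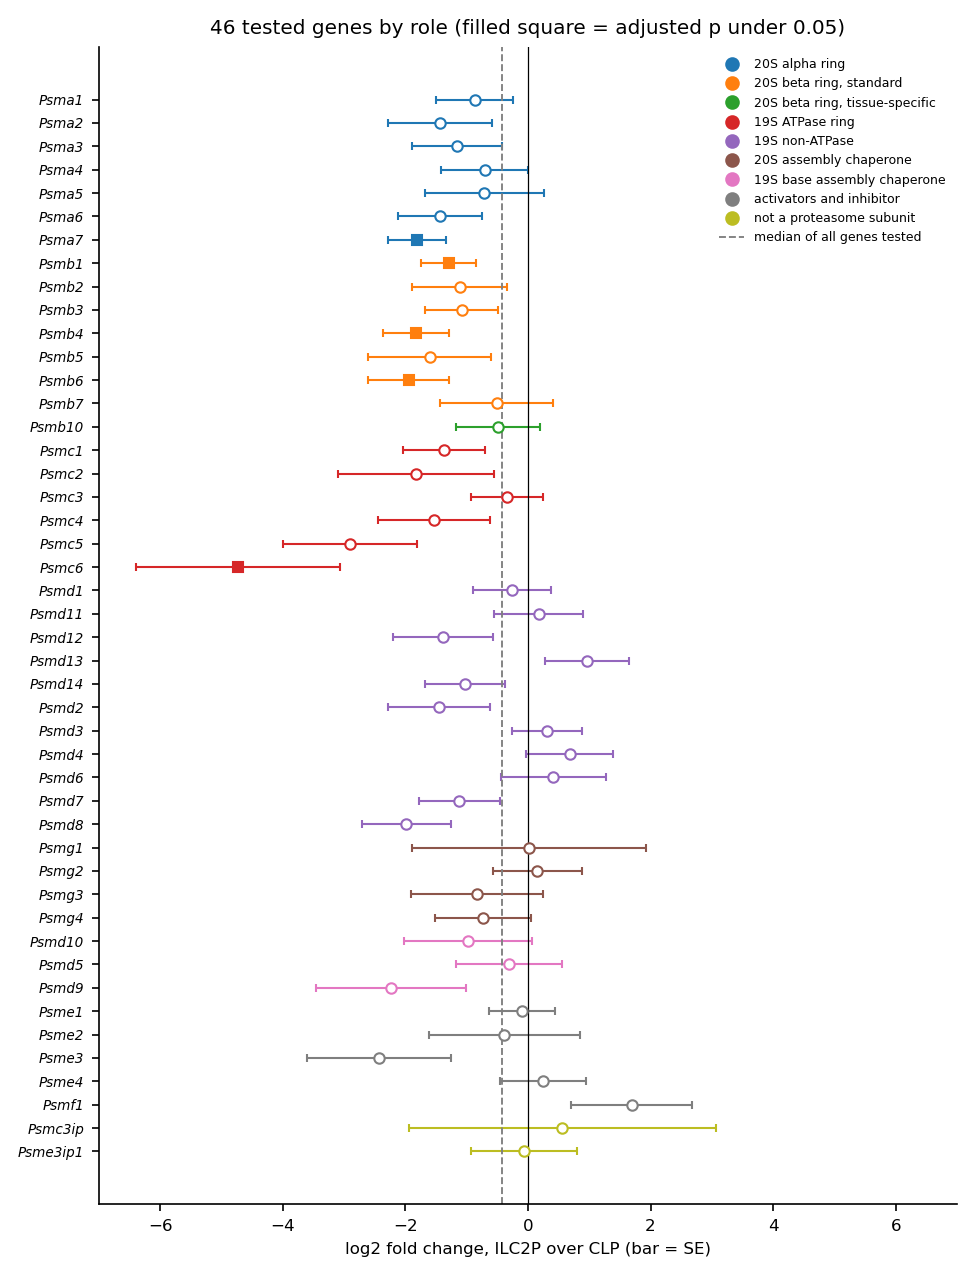
Log2 fold change of ILC2P over CLP with its SE for each of the 46 tested genes, ordered and coloured by role; filled squares passed at adjusted p under 0.05, and the dashed line is the median of all genes tested. The alpha, standard beta and ATPase genes lie below 0, while non-ATPase genes lie on both sides.

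In ILC2P against CILP, 2 members fell and 0 rose, of 46, with 5.32% of all genes called and 4.22% called lower. Psmb4 had 0, 65.7 and 198 CPM in ILC2P, against 83.1, 246 and 654 CPM in CILP (lowest, median, highest), a log2 change of -1.73 ± 0.55 (SE, adjusted p = 0.0470). Psmc6 had 0 counts in ILC2P and 48 counts in CILP, where 5 of 7 libraries had some and the highest was at 70.6 CPM, so it was at least 6.27-fold lower in ILC2P (adjusted p = 0.0445). Both calls were fragile: of 15 left-out libraries, 11 ended the call of Psmb4 and 13 that of Psmc6, every ILC2P library except replicates 4 and 7 for Psmb4 and every one for Psmc6, with CILP replicates 1, 2, 4, 6 and 7 for Psmb4 and 1, 2, 3, 5 and 7 for Psmc6. With the 5 libraries rich in markers of other cell types left out of the fit, 4 members were called, with Psma7 and Psmc5 added. The 5.32% of all genes called is from the main fit, so that count has no background share beside it. In the main fit the median log2 change of members was -0.75, against -0.55 over all genes.

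Between the other wild-type neighbours no member was called by edgeR. In α4β7+ CLP against CLP, 0.0456% of genes were called and 7.57% had an unadjusted p under 0.05. Of 46 members, 1 (2.17%) had such a p. It was Psmd9, a chaperone gene of the 19S base, with 49.6, 80.5, 90.2, 105 and 318 CPM in α4β7+ CLP, against 0, 6.53 and 110 CPM in CLP (lowest, median, highest), and a log2 change of 2.44 ± 1.13 (SE, adjusted p = 0.605). The inhibitor gene Psmf1 came next by p, at 11.5 ± 14.3 CPM in α4β7+ CLP and 45.6 ± 53.3 CPM in CLP (adjusted p = 0.799). DESeq2 called 0 members there.

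In CILP against CLP 4.31% of genes were called and 16.8% had an unadjusted p under 0.05, while 1 of 46 members (2.17%) had such a p. Psmd4, a ubiquitin receptor gene, had 71.2, 128 and 264 CPM in CILP, against 7.67, 37.5 and 77.1 CPM in CLP (lowest, median, highest), which overlapped only at the lowest CILP library. Its log2 change of 1.84 ± 0.71 (SE) had an adjusted p of 0.130 by edgeR, and DESeq2 called it, as its 1 member (1.76, adjusted p = 0.00963). The 4.31% of genes called is from edgeR, so the DESeq2 call has no background share beside it. The chaperone gene Psmg1 averaged 8.17 ± 7.44 CPM in CILP and 24.7 ± 21.5 CPM in CLP (adjusted p = 0.440). In CILP against α4β7+ CLP (2.35% of genes called) 3 of 46 members (6.52%) had an unadjusted p under 0.05, against 14.3% of all genes. DESeq2 called 0 members. The alpha gene Psma4 had 21.0, 83.1 and 145 CPM in CILP (lowest, median, highest), against 128, 132, 217, 279 and 1164 CPM in α4β7+ CLP, a log2 change of -2.04 ± 0.81 (SE, adjusted p = 0.178). Psmd9 averaged 24.1 ± 27.6 CPM in CILP and 129 ± 108 CPM in α4β7+ CLP (adjusted p = 0.266).

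In ILCP against CILP (0.374% of genes called) 1 of 46 members (2.17%) had an unadjusted p under 0.05, against 10.8% of all genes. DESeq2 called 0 members. All 11 non-ATPase genes had fold changes below 0, with a median log2 change of -0.84, against -0.52 over members and -0.27 over all genes. The chaperone genes Psmg3 and Psmg2 were lowest by p: Psmg3 had 0, 0 and 4.94 CPM in ILCP and averaged 43.0 ± 46.4 CPM in CILP (adjusted p = 0.439), and Psmg2 had 0 counts in ILCP and 47 counts over CILP, 2 of whose 7 libraries had some (adjusted p = 0.489). Psmb10 had 84.8, 237 and 387 CPM in ILCP, against 0, 94.98 and 245 CPM in CILP (lowest, median, highest). Psmb7 had 4.94, 8.41 and 12.1 CPM in ILCP, against 24.6, 54.9 and 90.9 CPM in CILP, without overlap (adjusted p = 0.495). Each of these ILCP values of Psmb7 was 1 count, so they differ only through library depth. In ILC2P against ILCP (0.483% of genes called) 7 of 46 members (15.2%) had an unadjusted p under 0.05, near the 12.4% of all genes. DESeq2 called 0 members. Psmb1 averaged 193 ± 125 CPM in ILC2P, against 437, 473 and 726 CPM in ILCP (adjusted p = 0.252), without overlap. Psmb4 averaged 83.9 ± 75.7 CPM in ILC2P, against 232, 254 and 320 CPM in ILCP (adjusted p = 0.302), without overlap on this TMM-scaled measure. On raw totals Psmb4 overlapped, with 47 of 283547 counts in ILCP replicate 1 and a larger share, 16 of 68253, in ILC2P replicate 7. The share of all genes without overlap was not counted in either comparison.

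Asked in 1 test whether a gene's level differed anywhere among the 5 wild-type populations, 4 members passed (18.1% of all genes did): Psma7 (adjusted p = 0.0246), Psmd9 (adjusted p = 0.0402), Psmb1 (adjusted p = 0.0433) and Psma4 (adjusted p = 0.0441). By mean, Psma7 and Psmb1 were highest in α4β7+ CLP (544 ± 245 and 705 ± 412 CPM) and lowest in ILC2P (139 ± 97.6 and 193 ± 125 CPM). Psma4 was highest in α4β7+ CLP (384 ± 441 CPM) and lowest in ILCP (20.9 ± 14.6 CPM), and Psmd9 was highest in α4β7+ CLP and lowest in ILC2P (4.65 ± 13.2 CPM, 1 of 8 libraries with counts). In α4β7+ CLP, 1 library (replicate 3) at 1164 CPM raised the mean of Psma4. Counts per gene overlap with neighbours in the annotation for some members, among them Psma4 (AY074887) and Psme1 (Emc9), and no source used here gives the strand setting of the counting.

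**Figure D4:**
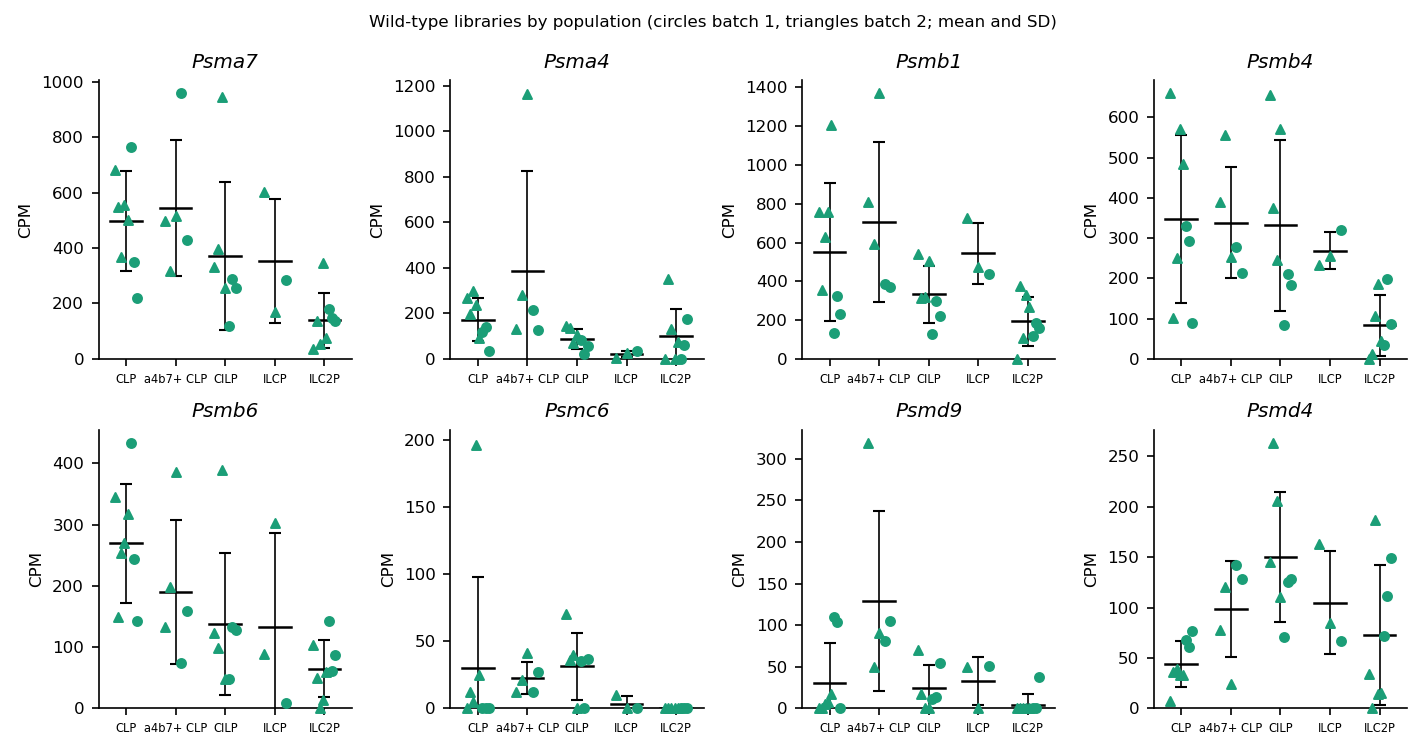
CPM in each wild-type library by population for 8 members: those called in a wild-type comparison and Psmd4; lines are means and bars SD. Psmb4 and Psmb6 averaged 83.9 and 64.9 CPM in ILC2P, and Psmc6 had 0 counts in all 8 ILC2P libraries.

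In Tcf7 knockout mice the members' share of counts overlapped with that in wild type in all 3 populations. It was 0.678 ± 0.100% in Tcf7 knockout CLP and 0.620 ± 0.0800% in wild-type CLP (SD, n = 5 and 8), and 2 of the 5 knockout libraries, at 0.772 and 0.800%, lay above all wild-type ones. In CILP it was 0.549 ± 0.0403% in the knockout and 0.557 ± 0.0588% in wild type (SD, n = 4 and 7). The 2 Tcf7 knockout ILC2P libraries stood at 0.315 and 0.604%, inside the wild-type ILC2P range, while their ILC2 markers, at 0.236 and 0.429%, lay below all wild-type ILC2P libraries. On TMM-scaled totals the overlap was lost: members summed to 6415 and 7294 CPM in the knockout and 1933 to 6102 CPM in wild type.

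In Tcf7 knockout ILC2P, where the level of Tcf7 itself did not check the labels, 2 members rose and 0 fell, both ATPase ring genes, of 46 tested, with 2.57% of all genes called and 2.54% called higher. Psmc3 had 2572 and 456 CPM in the knockout, against 0, 79.8 and 458 CPM in wild type (lowest, median, highest), a log2 change of 4.06 ± 0.80 (SE, adjusted p = 0.000698). The library at 2572 CPM (replicate 1) is the one with 20.03% plasma and mature B cell marker counts, with erythroid and myeloid markers at 0.812 and 0.900%, and without it the log2 change was 2.35 ± 1.07 (adjusted p = 0.487). Replicate 2 lay within the wild-type range, although above all 5 wild-type libraries of its own batch, which reached 87.7 CPM. Scaling mattered in replicate 1, since TMM set its total to 0.490 of the raw one: per 1000000 raw counts Psmc3 was at 1261 and 378 in the knockout and at most 542 in wild type.

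Psmc5 had 24.3 and 228 CPM in Tcf7 knockout ILC2P, against 0, 0 and 24.8 CPM in wild type, where 3 counts were found over 8 libraries. Its log2 change was 5.01 ± 1.35 (SE, adjusted p = 0.0207), and without knockout replicate 2, which held 47 of the 50 knockout counts, it was 2.70 ± 1.83 (adjusted p = 0.633). In that replicate all 6 mature T cell markers were detected and made up 0.661% of counts, against at most 0.00765% in wild-type ILC2P, and the part of either marker list in these results was not tested. Each of the 2 calls therefore came from a different knockout library. Psmb1 was at 857 and 1155 CPM in the knockout and at most 376 CPM in wild type, with an adjusted p of 0.0859. The groups did not overlap on this TMM-scaled measure. On the raw scale given above for Psmc3, Psmb1 was at 420 and 957 in the knockout and at most 430 in wild type. There the groups overlapped.

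In Tcf7 knockout CLP 0.00% of genes were called, and no member was called by edgeR or DESeq2. An unadjusted p under 0.05 was found for 3 of 46 members (6.52%), near the 6.498% of all genes (713 of 10972). Psmg2 had 0 counts in the 5 knockout libraries and 27 counts over 4 of 8 wild-type libraries (adjusted p = 0.641), and Psmd12, a lid subunit gene, averaged 30.05 ± 29.2 CPM in the knockout and 143 ± 63.5 CPM in wild type (log2 change -2.13 ± 1.00, SE, adjusted p = 0.679). In Tcf7 knockout CILP 0.501% of genes were called and 11.1% had an unadjusted p under 0.05. Of 46 members, 0 were called by edgeR or DESeq2 and 1 (2.17%) had an unadjusted p under 0.05. It was Psme1, at 0, 0, 38.3 and 596 CPM in the knockout, against 119, 329 and 857 CPM in wild type (lowest, median, highest). The knockout libraries at 0 were replicates 1 and 4, whose erythroid markers (1.27 and 3.59%, against at most 0.116% in wild-type CILP), myeloid markers (1.10 and 1.12%, against at most 0.156%) and ILC progenitor markers (0.0703 and 0.0750%, against 0.347 to 0.681%) stood apart, and their part in the value was not tested. Its log2 change was -1.64 ± 0.71 (SE, adjusted p = 0.366), and without the knockout library at 596 CPM (replicate 2) it was -3.99 (adjusted p = 0.0361). Without the 5 libraries rich in markers of other cell types, replicates 1 and 4 among them, it was -0.79 ± 0.79 (SE, adjusted p = 0.951). The other PA28 gene, Psme2, had 0, 0, 0 and 19.02 CPM in the knockout and averaged 56.7 ± 88.6 CPM in wild type (adjusted p = 0.503).

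In the Id2 knockout the members' share was higher in CILP but no single member was called. The share was 0.781 and 0.714% in Id2 knockout CILP, against 0.502 to 0.668% in the 7 wild-type CILP libraries, without overlap, and the ratio of means was 1.34. Within batch 1, which held both knockout libraries and 3 wild-type ones, it was 1.23. Of counts other than mitochondrial ones, which were 0.385 and 0.928% in the knockout and 2.83 to 7.69% in wild type, the share was 0.784 and 0.721% in the knockout and 0.540 to 0.688% in wild type. Other lists moved with it: cell cycle genes made up 0.642 and 0.381% of counts in the knockout and 0.0637 to 0.280% in wild type, and ILC progenitor markers 0.0611 and 0.0522% in the knockout and 0.347 to 0.681% in wild type. Erythroid markers made up 0.190 and 0.147% in the knockout and 0 to 0.116% in wild type, and mast cell and basophil markers 0.574 and 0.268% in the knockout and 0 to 0.452% in wild type, where 1 library (replicate 5) held nearly all. The part of these lists in the share was not tested. Of 46 members, 29 had a log2 change above 0 (median 0.20, against -0.15 over all genes). An unadjusted p under 0.05 was found for 0 members and 6.26% of all genes. DESeq2 called 0 members, and 0.0911% of all genes were called by edgeR. The smallest p values were those of Psme3ip1, at 90.4 and 545 CPM in the knockout and 70.1 ± 51.5 CPM in wild type (adjusted p = 0.811), and Psmb6, at 214 and 430 CPM in the knockout and 138 ± 116 CPM in wild type (adjusted p = 0.860).

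In Id2 knockout CLP the share was 0.645 and 0.559%, inside the wild-type CLP range. Of all genes 0.0365% were called and 3.17% had an unadjusted p under 0.05. Of the members, 0 were called by edgeR or DESeq2, and 0 had an unadjusted p under 0.05. The smallest p values were those of Psmc3ip, with 7 counts in 1 of the 2 knockout libraries (0 and 27.8 CPM, against a wild-type mean of 17.5 ± 36.8 CPM), and Psmc6, with 0 counts in the knockout and 30 in wild type (adjusted p = 1.00 for both). The single Id2 knockout ILCP library had a share of 0.679% (95% Clopper-Pearson interval 0.632 to 0.729%, counting error only), above the 3 wild-type ILCP libraries, and has no replicate check. In it erythroid markers made up 1.64%, myeloid markers 1.55%, cell cycle genes 0.583% and ILC2 markers 0.0350%, against at most 1.15, 0.0123 and 0.159%, and 0.184 to 0.746%, in wild-type ILCP, and their part in the share was not tested.

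**Figure D5:**
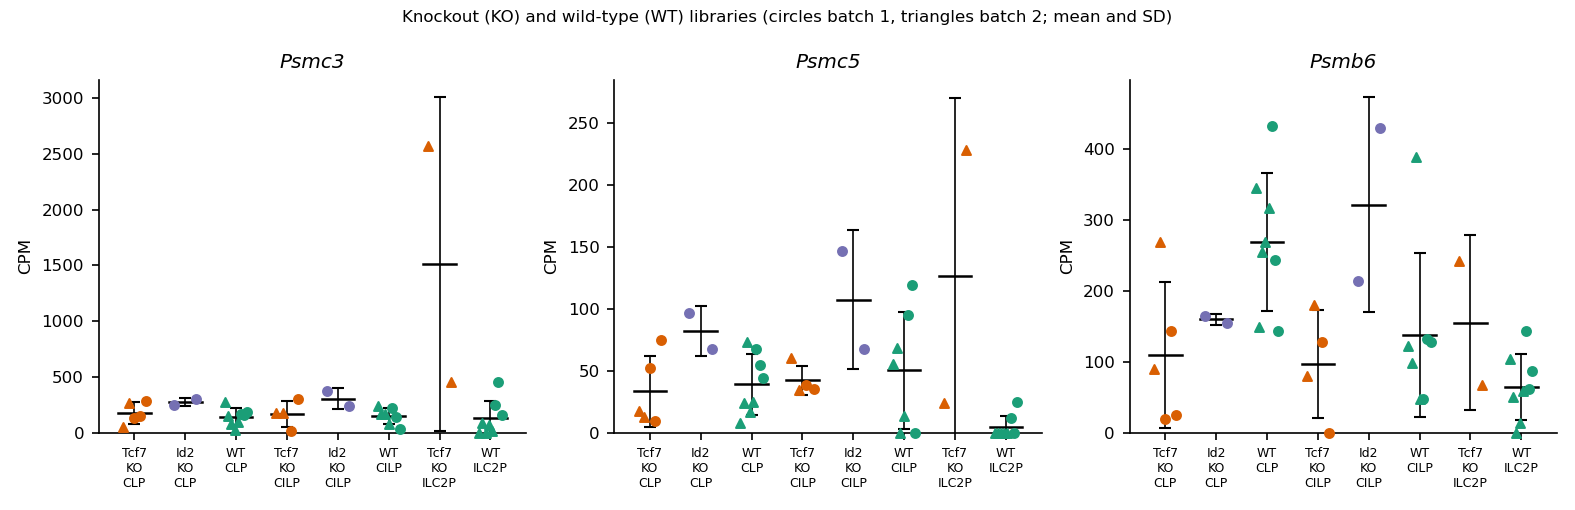
CPM of Psmc3, Psmc5 and Psmb6 in each Tcf7 knockout, Id2 knockout and wild-type library of CLP, CILP and ILC2P; lines are means and bars SD. In Tcf7 knockout ILC2P, replicate 1 holds the high Psmc3 value (2572 CPM) and replicate 2 the high Psmc5 value (228 CPM).

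Beyond the members, 30 other genes of the pathway were tested, and 0 passed in any comparison by edgeR. At most 2 had an unadjusted p under 0.05, as in Tcf7 knockout CILP, where 11.1% of all genes had one. They were 16 cofactors and regulators (such as Adrm1, a ubiquitin receptor; Usp14, a deubiquitinase; and Nfe2l1, the factor that raises proteasome transcription when the enzyme is inhibited), 10 shuttle and p97 genes (such as Rad23b and Vcp) and 4 ubiquitin and E1 genes. In ILC2P against CLP, 19 of the 30 had a fold change below 0 with a median log2 change of -0.46, close to -0.43 over all genes. While 27.1% of all genes had an unadjusted p under 0.05, 1 of the 30 did. That gene, Rad23b, averaged 80.5 ± 76.2 CPM in ILC2P and 261 ± 212 CPM in CLP (SD, n = 8 each), with a log2 change of -1.38 ± 0.67 (SE, adjusted p = 0.166).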

How the data were processed

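CEL-seq counts of 27179 genes were deposited by the authors as 2 tables of raw counts, 1 for each batch, with a column per sample. The submitters' processing notes name the genome build mm10 and the tools CASAVA 1.8.2, featureCounts, limma and 2 versions of edgeR, 3.8.2 and 3.22.0. No source used here names the aligner or the strand setting. RefSeq (GRCm38.p6) named 25275 gene IDs (92.99%). Of 70 samples, 4 were repeat runs and were summed, giving 66 libraries; 1 library labelled as an outlier, 6 of Nfil mice and 12 control wells stayed out of the fit. The other 47 were fitted in edgeR 4.0.16 (R 4.3.3, limma 3.58.1): TMM scaling, low-count filter (minimum 10, total 15), robust quasi-likelihood test with group means and batch, 35 residual degrees of freedom, a biological coefficient of variation of 109.7%, and Benjamini-Hochberg adjustment over 10972 genes at 0.05. DESeq2 1.42.0, its size factors, each batch alone, no batch term, no filter, compared groups only, dropping shallow libraries (depth under 20% of the batch median), the outlier put back and single libraries left out were tried, and, chosen after seeing the data, a fit without the 5 libraries whose markers of other cell types passed 1% of counts. Intervals (95%, Clopper-Pearson) and floors (3 counts) cover counting error only. The fit was tested on simulated data.

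Named were all called members, the 2 with the smallest p per comparison, the cutting-site, PA28, ubiquitin receptor and lid deubiquitinase genes, the 3 highest and 3 lowest by level, and called pathway genes; members under 10 counts were named as a group. Rad23b, and Psmb1 in Tcf7 knockout ILC2P, were chosen after their values were seen. The members and lists were chosen with earlier results of these data known.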

Additional observations from a re-analysis of the deposited data

Results flagged for a closer look

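Dixon's criterion was applied 60 times, to the member share or to 1 member in a group of 4 to 8 libraries. In 15 of these, all of single members, 1 library stood apart from the others. Chance meets the criterion in about 1 of 20 groups of normally distributed values. CPM here are skewed and often 0, so that rate is no yardstick for this count. In Tcf7 knockout CILP these were Psma4 at 225.0 CPM and Psmb1 at 735 CPM in replicate 2, Psmc5 at 60.0 CPM in replicate 1 and Psmd9 at 25.5 CPM in replicate 3. In Tcf7 knockout CLP they were Psma4 at 388 CPM and Psmc6 at 34.8 CPM in replicate 5, Psmb1 at 1449 CPM in replicate 2 and Psmd9 at 384 CPM in replicate 1. In wild-type CILP replicate 3, Psma7 was at 944 CPM and Psmb6 at 389 CPM. Psmc6 was at 196 CPM in wild-type CLP replicate 4, Psma7 at 345 CPM in ILC2P replicate 4 and Psmd9 at 37.2 CPM in ILC2P replicate 8. Psma4 was at 1164 CPM in α4β7+ CLP replicate 3 and Psmd9 at 318 CPM in α4β7+ CLP replicate 1.

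Of the 7 libraries outside the comparisons that were not control wells, 6 held more member counts than the highest of the 12 control wells, which held 32. The Nfil CLP libraries held 1225 and 650 member counts, 1 Nfil CILP library held 135 and the other 0 (of 296 gene counts, which allows a share of up to 1.01%), and the Nfil ILC2P libraries held 92 and 100. The wild-type CILP library labelled as an outlier held 214.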

How the results depend on the processing

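Leaving the low-count filter off, leaving out shallow libraries, using DESeq2's size factors or fitting the compared groups only each gave 2 members called in ILC2P against CLP, where 5 were reported, and batch 2 alone gave 1 and batch 1 alone 0. In ILC2P against CILP, DESeq2, its size factors, either batch alone and the compared groups gave 0, and leaving out shallow libraries or the filter gave 1. In Tcf7 knockout ILC2P, batch 2 alone, no batch term and the compared groups each gave 1. DESeq2 gave 1 in CILP against CLP, and the compared groups gave 1 in CILP against α4β7+ CLP. For any wild-type difference, size factors and no batch term gave 1, batch 1 alone and no filter 2, and batch 2 alone and leaving out shallow libraries 0. Psmc3ip in Id2 knockout CLP (log2 change 2.82) turned to -0.29 with no batch term. The cause was not tested. Without the 5 libraries rich in markers of other cell types, a choice made after seeing the data, 4 members were called in ILC2P against CILP and 1 in Tcf7 knockout ILC2P. In all, 26 of 127 such counts of members moved by over 1.5 times. The share of all genes called under each setting, also with single libraries left out, is not given beside these counts. Whether members moved more than other genes was not tested.

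With single libraries left out, members called ranged between 0 and 3 in ILC2P against CILP, 2 and 5 in ILC2P against CLP, 0 and 1 in Tcf7 knockout CILP, 1 and 3 in Tcf7 knockout ILC2P, and 2 and 5 for any wild-type difference, and Psmc3ip between -1.32 and 3.77.

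With 26S subunits alone the share was 0.625% in Id2 knockout CILP, 0.522% in Id2 knockout CLP, 0.581% in Id2 knockout ILCP, 0.465% in Tcf7 knockout CILP, 0.569% in Tcf7 knockout CLP, 0.460% in wild-type CILP, 0.519% in wild-type CLP and 0.334% in both wild-type ILCP and wild-type ILC2P. Without mitochondrial counts it was 0.730% in Id2 knockout ILCP and 0.605% in Tcf7 knockout CILP. On TMM-scaled totals it was 0.685% in Tcf7 knockout ILC2P and 0.378% in wild-type ILC2P, and batch 1 alone gave 0.517% in wild-type ILCP. No paired analysis was possible because the labels carry no replicate numbers. ILC2P depth, at most 80873 counts, limits low members such as Psmc6.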
